A study of Mus musculus with 2 samples.

Results

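The genes described here are 3 uncoupling proteins, Ucp1, Ucp2 and Ucp3, and 6 genes known for their use in fat cells: Adipoq, Cfd, Car3, Pck1, Otop1 and Acvr1c. They are 9 of the 55536 annotated genes in the tables. They were chosen by their measured values in these same hearts, as uncoupling proteins and fat-cell genes whose level differed between the animals. The difference between the animals is therefore given as a description, with no test. It was at least 2-fold for 7 of the 9 genes, all of them lower in replicate 2, against 1.36% of the 16506 measured genes, meaning those whose expected counts sum to 20 or more over both libraries. Ucp2 and Ucp3 were only 1.29-fold and 1.08-fold lower in replicate 2, so a difference of that size holds for the other 7 genes only.

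The hearts came from female mice of strain B6CASTF1/J at an age of 10 days, which per the strain name is the F1 cross of C57BL/6J and CAST/EiJ. The 2 animals form a single group, and 1 library of total RNA was made from each heart. Both libraries started from 300 ng of RNA, and synthetic ERCC RNAs had been added. The labels call the hearts separate biological replicates under 1 donor record, so taking them as 2 animals is an assumption. The labels name no treatment, genotype other than the strain, litter or dissection detail, so nothing in the labels distinguishes the animals. Each library is whole tissue, so a heart with fewer cells of a type cannot be told apart from one whose cells hold less of an RNA.

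Uncoupling proteins are carriers of the mitochondrial inner membrane. Ucp1, the thermogenic protein of brown and beige fat, lets protons return to the matrix without making ATP, so that fuel oxidation gives heat. Ucp2 and Ucp3 are relatives with wider expression, Ucp3 mainly in skeletal muscle, heart and brown fat, and their roles are tied to fatty acid and metabolite handling more than to heat. Young mice carry brown fat depots in the chest, including around the great vessels next to the heart.

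The 100 bases upstream of 4 of the genes are shown to set Ucp1, Adipoq and Pck1, which were lower in replicate 2, beside Ucp3, which was nearly level. They are RefSeq promoter sequences of build GRCm38.p6, all on the plus strand and written 5′ to 3′. Each window ends just before the more upstream of the RefSeq and GENCODE gene starts. Capitals mark matches, on either strand, to AGGTCA (the core element of nuclear receptors), TATATA (a form of the TATA box, the same on both strands), CCAAT (the CCAAT box) and TACGTCA (a core of the cAMP response element). The motifs were chosen after the sequences had been seen, and no matches overlapped.
Ucp1, chr8:83290248-83290347: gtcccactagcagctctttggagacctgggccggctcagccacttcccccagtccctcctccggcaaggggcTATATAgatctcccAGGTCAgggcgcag
Adipoq, chr16:23146436-23146535: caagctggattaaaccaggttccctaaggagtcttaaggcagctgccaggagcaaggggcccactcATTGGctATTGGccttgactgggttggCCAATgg
Pck1, chr2:173152948-173153047: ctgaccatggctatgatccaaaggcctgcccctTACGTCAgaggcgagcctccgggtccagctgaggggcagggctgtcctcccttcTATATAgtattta
Ucp3, chr7:100472890-100472989: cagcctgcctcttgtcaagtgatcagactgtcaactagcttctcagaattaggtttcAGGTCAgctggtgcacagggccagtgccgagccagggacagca

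AGGTCA stood in the window of Ucp1, 14 bases before the RefSeq start, and in that of Ucp3, 44 bases before it. It was found in the last 100 bases of 5.88% of the 32851 RefSeq promoters. TATATA stood 28 bases before the start of Ucp1 and 38 bases before that of Pck1, and 2.19% of promoters held it. Pck1 also held TACGTCA 92 bases before its start, which 0.688% of promoters held. Adipoq held 3 copies of CCAAT, a motif in 18.9% of promoters. The matching windows of Ucp2, Cfd and Acvr1c held none of the 4 motifs. Thus AGGTCA was shared by Ucp1, with a large difference between the hearts, and Ucp3, with a small one. TATATA was shared by Ucp1 and Pck1, both lower in replicate 2. None of the 4 motifs was found in every searched gene that was lower in replicate 2, and Car3 and Otop1 were not searched. Any link between the motifs and the difference was not tested. The Ucp1, Adipoq and Pck1 windows lie outside annotated genes, while the Ucp3 window lies within the antisense gene Gm10603.

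Replicate 1 held 40403041 and replicate 2 held 39849597 expected counts over all entries. The median log2 ratio of replicate 2 over replicate 1 was -0.00040 over the 16506 measured genes after scaling by TMM factors. Of these genes, 225 were at least 2-fold lower and 189, or 1.15%, at least 2-fold higher in replicate 2. Scaling by the ERCC spike-ins moved every log2 ratio by -0.10 and gave 291 lower and 148 higher genes. Ventricular muscle genes summed to 40366 TPM in replicate 1 and 42487 TPM in replicate 2, and no gene of that list of 10 differed by 2-fold, which checks the tissue label.

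Ucp2 was the most abundant of the 9 genes in both hearts. It lies on chromosome 7 at 100493337-100502020 (mm10, GENCODE M21, plus strand). Its level was 337 TPM (a relative abundance corrected for transcript length) in replicate 1 and 257 TPM in replicate 2, a mean of 297 ± 56.6 (SD, n = 2). The 11908 and 9031 expected counts behind these values gave a 1.29-fold lower level in replicate 2, with a 95% interval of 1.25 to 1.32 that covers counting error only. Both hearts were thus far above the level of every other gene of the group, and the difference was small beside that of Ucp1.

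Ucp3, at 100472990-100486432 on the same chromosome and strand, ends 6904 bases before Ucp2 begins. Replicate 1 had 43.0 TPM of it and replicate 2 had 39.5 TPM (mean 41.2 ± 2.52, SD, n = 2). Its 3088 and 2779 counts gave a 1.08-fold lower level in replicate 2 (1.03 to 1.14). This was the closest match between the hearts among the 9 genes. The antisense gene Gm10603 overlaps its first 1857 bases and held 73 counts in replicate 1 and 29 in replicate 2. No strand setting of the counting is given in the sources used here, so reads of these overlapping genes may not be told apart, though the antisense counts are few beside those of Ucp3.

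Ucp1 lies on chromosome 8 at 83290352-83298452, plus strand. Its level was 44.5 TPM in replicate 1 but 6.85 TPM in replicate 2, from 2140 (exact Poisson interval 2050 to 2233) and 323 (289 to 360) counts. The level was 6.45-fold lower in replicate 2 (5.74 to 7.28). The mean of 25.7 ± 26.6 TPM (SD, n = 2) has an SD larger than itself and describes neither heart.

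Ucp1 stood at 1.03 times the TPM of Ucp3 in replicate 1, nearly equal to it, and at 0.174 times in replicate 2. In the estimated counts the log2 ratio of Ucp1 to Ucp3 was -0.06 in replicate 1 and -2.72 in replicate 2, so which of them led in replicate 1 depends on the table. Ucp2 exceeded Ucp3 by 7.83-fold in replicate 1 and 6.51-fold in replicate 2, so their order was the same in both. These ratios are formed within a library and do not depend on the scaling between libraries.

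**Figure D1:**
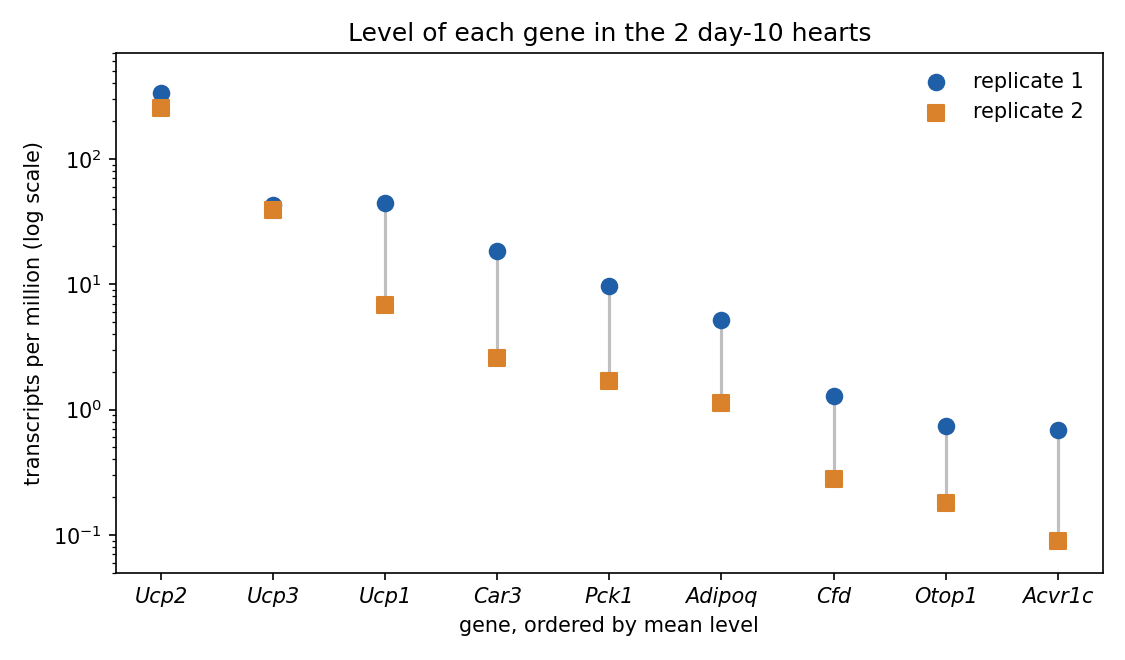
Level of each of the 9 genes in TPM on a log axis, 1 point per heart (circle, replicate 1; square, replicate 2), joined by a line. Ucp2 and Ucp3 nearly coincide between the hearts, while Ucp1 stands at 44.5 and 6.85 TPM and the 6 fat-cell genes are each lower in replicate 2.

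The 2 secreted proteins were both lower in replicate 2. Adipoq encodes adiponectin, the hormone released by fat cells that acts on insulin sensitivity, and lies on chromosome 16 at 23146536-23158028, plus strand. Replicate 1 had 5.19 TPM of it, from 166 counts, and replicate 2 had 1.12 TPM, from 24 counts. Scaled counts were 6.62-fold lower in replicate 2 (4.38 to 10.8). Cfd encodes adipsin, or complement factor D, the protease that starts the alternative complement pathway, and lies on chromosome 10 at 79890853-79892655, plus strand. It was measured at 1.28 and 0.28 TPM from only 33 and 7 counts. The level was 4.35-fold lower in replicate 2, with an interval of 2.00 to 12.3 that leaves the size of the difference poorly known.

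In the expected-count values the 2 enzymes stood higher than the secreted proteins. The estimated counts put Adipoq at 2.53 TPM in replicate 2, above Pck1 at 1.96 TPM. Car3 encodes carbonic anhydrase 3, a cytosolic enzyme abundant in fat and in slow skeletal muscle, and lies on chromosome 3 at 14863512-14872523, plus strand. Its level was 18.5 TPM from 915 counts in replicate 1, against 2.60 TPM from 126 counts in replicate 2. The 7.05-fold lower level in replicate 2 (5.87 to 8.60) was the largest of the 9. Pck1 encodes the cytosolic phosphoenolpyruvate carboxykinase, which in fat supplies glycerol 3-phosphate for triglyceride synthesis, and lies on chromosome 2 at 173153048-173159273, plus strand. The hearts had 9.73 and 1.70 TPM of it from 772 and 132 counts, 5.68-fold lower in replicate 2 (4.73 to 6.91).

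The 2 membrane proteins were the scarcest. Otop1 encodes the proton channel otopetrin 1, a gene used as a marker of brown fat, and lies on chromosome 5 at 38275972-38304217, plus strand. The hearts had 0.74 TPM (replicate 1) and 0.18 TPM (replicate 2) of it, from 70 and 16 counts, 4.16-fold lower (2.45 to 7.87). Acvr1c encodes ALK7, a type I receptor of the TGF-beta family that restrains lipolysis in fat cells, and lies on chromosome 2 at 58267453-58357895, minus strand. Its levels were 0.69 and 0.09 TPM from 95 and 15 counts, 6.005-fold lower in replicate 2 (3.56 to 11.5). In the gene table neither reached 1 TPM in either heart, while the estimated-count table put Otop1 at 1.01 TPM in replicate 1. The antisense gene Gm13544 and the pseudogene Gm13545, which overlap Acvr1c, had 0 counts in both libraries.

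**Figure D2:**
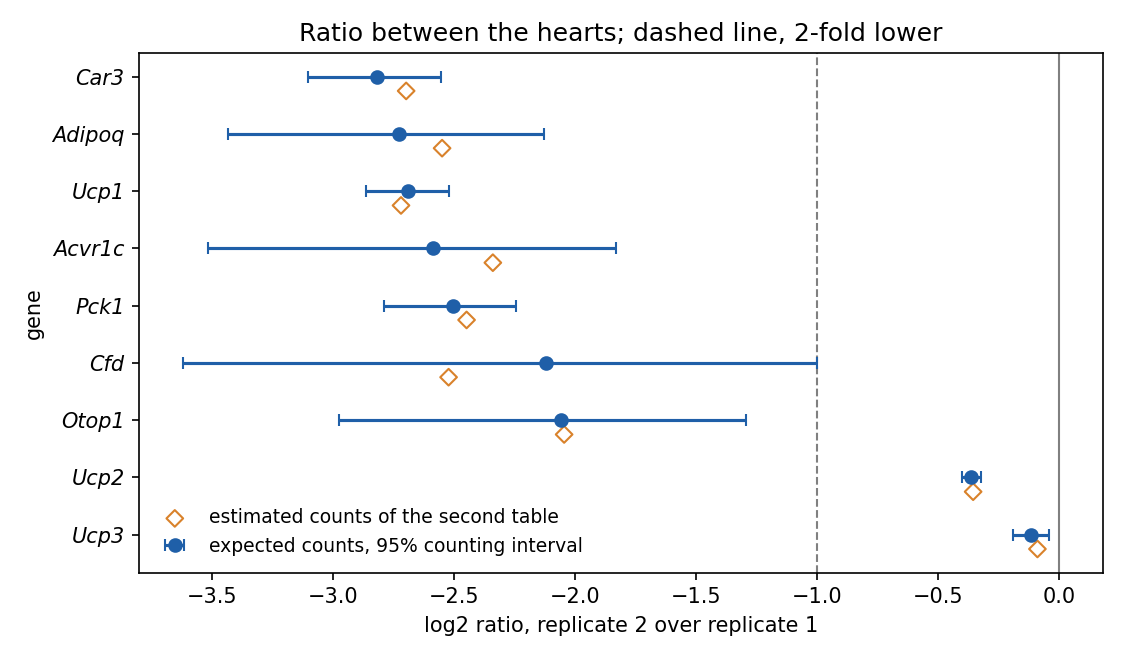
Log2 ratio of replicate 2 over replicate 1 for each gene, with its 95% counting interval (bars) and the ratio from the estimated counts of the second transcript table (diamonds). The 7 genes at the top lie at or below -2.06, and Ucp2 and Ucp3 lie at -0.36 and -0.11.

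The 7 genes that were lower in replicate 2 had levels in replicate 1 from 0.69 to 44.5 TPM. The folds ran from 4.16 for Otop1 to 7.05 for Car3, with a median of 6.005. Their counting intervals ran from 2.00 to 12.3 for Cfd, the widest, and from 5.74 to 7.28 for Ucp1, the narrowest in relative terms, and the genes had been chosen by these same values. Summed over the 7 genes, 80.6 TPM in replicate 1 stood against 12.8 TPM in replicate 2, a 6.29-fold difference. Ucp1 made up 55.2% of that sum in replicate 1 and 53.4% in replicate 2.

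Within each library the fat-cell genes were also set against Ucp1. Car3 stood at 0.417 times the TPM of Ucp1 in replicate 1 and 0.380 times in replicate 2. Pck1 stood at 0.219 and 0.248 times. Acvr1c stood at 0.0155 and 0.0131 times, Cfd at 0.0288 and 0.0409 times, and Otop1 at 0.0166 and 0.0263 times. Both scarce genes with a higher ratio in replicate 2, Cfd and Otop1, rest there on 7 and 16 counts. Adipoq stood at 0.117 times the TPM of Ucp1 in replicate 1 and 0.164 times in replicate 2. Its counts were 7.76% and 7.43% of those of Ucp1, so the ratio rose in TPM and fell slightly in counts. The estimated counts widened the gap in TPM further, with a log2 ratio of Adipoq to Ucp1 in TPM of -2.72 in replicate 1 and -1.56 in replicate 2. For Acvr1c the direction turned with the table, since the estimated counts gave log2 ratios of -6.35 and -5.70.

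The isoform tables show where that gap arises, and the rule for choosing the genes did not use them. Adipoq has 2 annotated isoforms, both protein-coding. The long Adipoq-201 (1292 nt) held 77.2% of the Adipoq TPM in replicate 1 and 34.2% in replicate 2, and the short Adipoq-202 (539 nt) held the rest. Replicate 2 placed 14.03 of its 24 counts on the long and 9.97 on the short isoform. The gene's mean transcript length, weighted by isoform share, was accordingly 1120 nt in replicate 1 and 796 nt in replicate 2. As a result the fold between the hearts was 4.63 in TPM but 6.62 in scaled counts. In the estimated counts the long isoform also led in replicate 1, with 57.6% of TPM, and not in replicate 2, with 14.2%. At 24 counts the isoform shares of replicate 2 are imprecise. Acvr1c, whose mean transcript length was 4468 nt in replicate 1 and 5527 nt in replicate 2, had folds of 7.67 in TPM and 6.005 in scaled counts.

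Ucp1 has a single annotated isoform, so its level carries no such uncertainty. Car3-201 held 99.0% of Car3 TPM in replicate 1 and 98.9% in replicate 2, and Pck1-201 held 96.6% and 89.3% of Pck1. Ucp3-201, the long protein-coding form, held 89.2% and 91.2% of Ucp3. In the estimated counts it held 77.0% and 75.9% of TPM. There the other protein-coding form, Ucp3-202, held 15.8% and 18.6%, while it had 0 expected counts in both hearts. The intron-retaining Ucp3-203 held 178.42 and 88.28 counts, so this minor form differed more between the hearts than the gene did. The other intron-retaining form, Ucp3-204, went the other way with 87.1 and 95.26 counts. Reads of the overlapping antisense gene Gm10603 may not be told apart from those of Ucp3. Ucp2 was led by Ucp2-210 with 57.1% and 58.4%, followed by the noncoding Ucp2-211 with 25.3% and 25.0%. In the estimated counts Ucp2-211 held 0 counts in both hearts and Ucp2-203 held 32.5% and 33.7% of TPM. The hearts were alike by either method in their Ucp2 isoforms, and the methods differed from each other. For Otop1 and Cfd the methods assigned the few reads to different isoforms, so no isoform is given for them.

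Other members of each gene's family and pathway were read from lists of genes, described by counts and medians. Among 11 measured uncoupling protein relatives of the SLC25 carrier family, 1 was at least 2-fold lower in replicate 2, namely Ucp1. The 8 measured relatives outside the group had a median log2 ratio of 0.07. The ADP/ATP carrier Slc25a4 was measured at 1519 and 1722 TPM, Slc25a5 at 285 and 288 TPM, and the oxoglutarate carrier Slc25a11 at 154 and 166 TPM. None of the 8 relatives outside the group was at least 2-fold lower, which is near the share over all genes.

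Adiponectin receptors were close to level between the hearts. In the list of the ligand, its receptors and relatives, Adipoq alone of 11 measured genes passed 2-fold, and the other 10 had a median log2 ratio of 0.05. Adipor1 was measured at 53.1 and 56.7 TPM, Adipor2 at 23.8 and 24.8 TPM, and Cdh13, the T-cadherin that binds adiponectin, at 93.0 and 86.4 TPM. The receptors therefore stood above the ligand in both hearts.

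In the alternative complement pathway, Cfd alone of 14 measured genes passed 2-fold. C3, the central complement protein, came next with 26.7 TPM in replicate 1 and 15.4 TPM in replicate 2, 1.73-fold lower (1.65 to 1.82). The membrane inhibitor Cd59a was measured at 13.7 and 15.6 TPM. The 13 measured genes outside the group had a median log2 ratio of -0.16.

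Of 10 measured carbonic anhydrases, the 1 past 2-fold was Car3, which was chosen by that difference. The membrane-bound Car14 was measured at 57.2 and 60.1 TPM and Car4 at 18.9 and 21.1 TPM, and the related protein Car8 at 6.66 and 5.97 TPM. In replicate 1 Car3 stood beside Car4, and in replicate 2 well below it. Of the otopetrins, Otop2 and Otop3 had 0 counts in both libraries.

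Of 12 measured genes of ALK7 signalling, Acvr1c alone passed 2-fold and the other 11 had a median log2 ratio of -0.04. Smad4, the common partner of the pathway, was measured at 29.2 and 30.3 TPM and Smad2 at 14.4 and 12.3 TPM. The sister receptor ALK4, encoded by Acvr1b and chosen after its values were seen, stood at 8.42 and 7.90 TPM, above Acvr1c in both hearts. The ligand Gdf3 had at most 1 count in either library.

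In glyceroneogenesis and pyruvate cycling, Pck1 alone of 7 measured genes passed 2-fold. Gpd1, which makes glycerol 3-phosphate from a glycolytic intermediate, was measured at 30.2 and 19.6 TPM, 1.52-fold lower in replicate 2 (1.43 to 1.62). The kinase Pdk4 was measured at 389 and 335 TPM, and the glycerol kinase Gk at 18.0 and 15.7 TPM. The mitochondrial isoform Pck2, chosen after its values were seen, stood at 9.41 and 11.1 TPM. Pck1 and Pck2 were therefore nearly equal in replicate 1, while Pck2 led in replicate 2.

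In the list of genes shared by brown and white fat cells, 10 of 27 measured genes were at least 2-fold lower in replicate 2 and none was 2-fold higher. Over all measured genes, 1.36% were that much lower and 1.15% that much higher. Of the 10 lower genes, 5 belong to the group, which was chosen by this difference, and the others were Plin1, Cidec, Adig, Hcar1 and Nnat. Plin1, the coat protein of fat cell lipid droplets, was measured at 9.67 and 1.27 TPM, 7.12-fold lower (5.58 to 9.32). Cidec, which enlarges lipid droplets, was measured at 3.87 and 0.59 TPM, 5.32-fold lower. The other 3 were 2.61-fold to 2.92-fold lower, on 31 to 49 counts in replicate 1 and 10 to 18 in replicate 2. Plin1 was thus the gene outside the group in this list with a fold above that of Ucp1. Outside the group, 5 of 22 measured genes were thus at least 2-fold lower, and the 22 had a median log2 ratio of -0.06.

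The most abundant genes of that list were level between the hearts. Cd36, the fatty acid transporter, was measured at 628 and 645 TPM, Fabp4 at 445 and 476 TPM, Lpl at 440 and 519 TPM and Pnpla2 at 98.3 and 98.7 TPM. These genes are also known from heart muscle and capillaries. In the brown fat list, 2 of 11 measured genes were 2-fold lower, Ucp1 and Otop1, and the other 9 had a median log2 ratio of -0.06. Cox7a1 was measured at 481 and 536 TPM, Cox8b at 714 and 734 TPM and the potassium channel Kcnk3 at 64.1 and 71.7 TPM. Cidea, a lipid droplet protein chosen after its values were seen, lay between these patterns with 38.8 and 26.1 TPM, 1.48-fold lower (1.35 to 1.62). Of the brown fat markers, Elovl3, Zic1, Lhx8, Slc27a2 and Sgk2 had too few counts to be measured. In the white fat list 1 of 5 measured genes, Nnat, was 2-fold lower, Hoxc9 had 0 counts in both hearts, and the median log2 ratio was -0.05.

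The 3 fat-cell lists hold 35 measured genes outside the group, which were also read by level, in classes set after the values were seen. Of the 12 genes with a mean of at least 30 TPM, none was 2-fold lower in replicate 2 (median log2 ratio 0.08), against 0.116% of all measured genes at that level. Of the 8 genes between 10 and 30 TPM, again none was (median 0.07), against 0.226% of all genes. Of the 15 genes under 10 TPM, 5 were, namely Plin1, Cidec, Adig, Hcar1 and Nnat (median -0.26), against 2.14% of all genes. Of the 7 lower genes of the group, Ucp1 and Car3 lie in the middle class and the other 5 in the lowest.

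**Figure D3:**
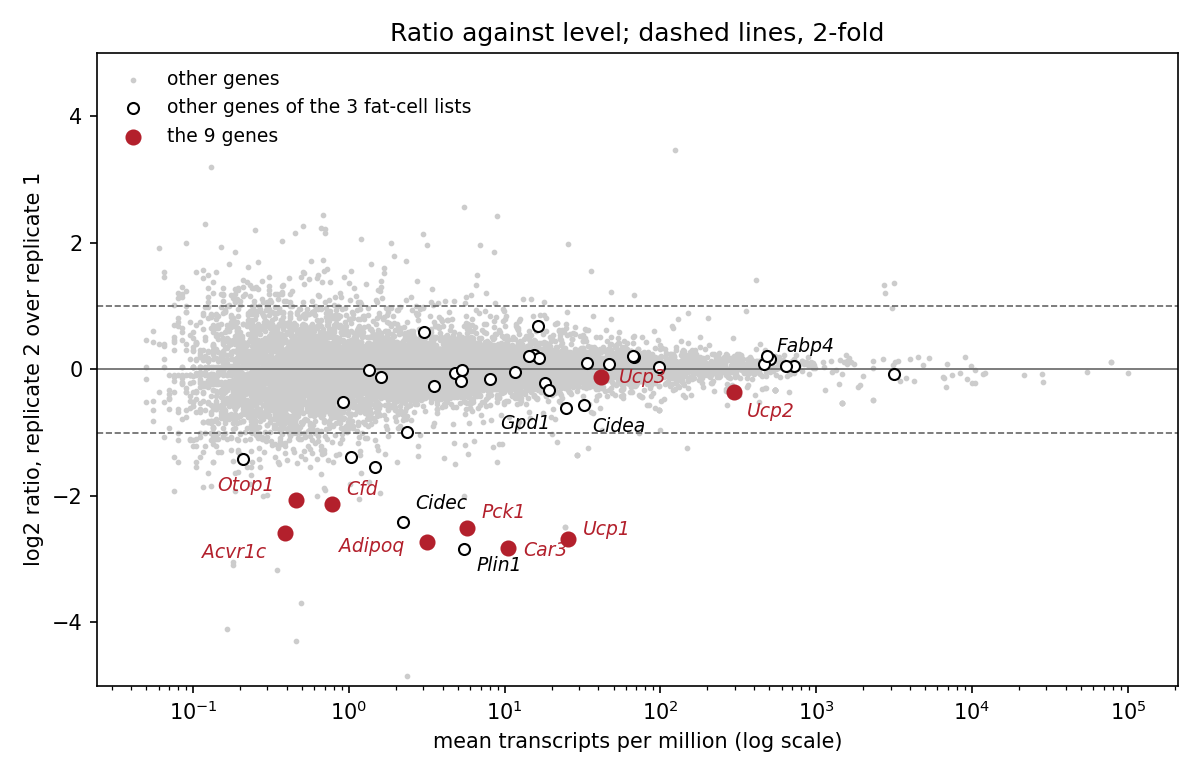
Log2 ratio of replicate 2 over replicate 1 against mean TPM on a log axis for 16471 genes (grey), with the 9 genes in red and the other measured genes of the 3 fat-cell lists as open circles; 35 genes outside the axes are not drawn. Ucp1, Car3, Pck1 and Adipoq stand apart from the grey cloud at their level together with Plin1 and Cidec, while Fabp4 and other abundant fat-cell genes lie near 0.

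Regulators of heat production and lipid enzymes showed no difference of the size seen for Ucp1. None of 17 measured thermogenic regulators passed 2-fold in either direction (median log2 ratio -0.05). The coactivator Ppargc1a, which drives Ucp1 in brown fat, was measured at 45.4 and 48.5 TPM, and the thyroid hormone receptor Thra at 76.6 and 69.6 TPM. None of 17 genes of triglyceride and fatty acid synthesis passed 2-fold (median -0.13). In the lipid droplet and lipolysis list the genes past 2-fold were Plin1 and Cidec, 2 of 14, while Plin2 was measured at 61.9 and 60.8 TPM. Of 18 measured PPAR-alpha targets, which include Ucp2 and Ucp3, 1 passed 2-fold. That gene, Angptl4, the inhibitor of lipoprotein lipase, was measured at 48.1 and 20.3 TPM, 2.36-fold lower (2.21 to 2.52).

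The protein-coding genes with a mean of at least 1 TPM were searched for the ratios nearest to the median of the 7 genes. Of 13836 measured protein-coding genes, 0.831% were at least 2-fold lower. Cidec (log2 ratio -2.41) and Plin1 (-2.83) were nearest. Also among the nearest 10, at a distance, were Nr4a3 (-1.64), Adig (-1.55), Prkar2b (-1.40) and Nnat (-1.38). The other 4 of the nearest 10, Gm20422, AC140267.1, Rpl36a-ps1 and Mrpl23, had ratios from -2.05 to -1.49 in the expected counts. Of these 4, Gm20422, AC140267.1 and Rpl36a-ps1 were nearer than Nr4a3. In the estimated counts Gm20422 had a log2 ratio of -1.13 and Mrpl23 one of 0.03. AC140267.1 and Rpl36a-ps1 had 0 estimated counts in both libraries. Likeness here is the log2 ratio over 2 libraries, and nothing more.

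Among 11905 protein-coding genes at that level, 6 had a lower ratio than Car3, while 324 had a lower one than Ucp2 and 2331 a lower one than Ucp3. These ranks restate the values by which the genes were chosen. Among the 6 were Plin1, Prn, Asdurf, Chtf8 and Gm44965. In the estimated counts Prn had a log2 ratio of -0.21, Chtf8 one of 4.63 and Gm44965 one of 1.62, and Asdurf had 0 counts in both libraries. Also among the 10 lowest were Cidec, Gm20422, AC140267.1 and Rpl36a-ps1. Of the genes named by these searches, Plin1 and Cidec had the ratios closest to that of Ucp1 by both methods.

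Markers of other tissues that a dissected heart could carry were read in the same way. Endothelial genes (10 measured, median log2 ratio 0.02), fibroblast genes (10, 0.04), macrophage genes (10, 0.29) and epicardial and mesothelial genes (10, -0.18) had no gene past 2-fold. Skeletal muscle, the other main site of Car3, had 6 of 12 genes measured, and 1 of them, Tnni2, was 2-fold higher in replicate 2 on 15 and 31 counts. Lymphocyte and thymus genes summed to 6.85 and 4.88 TPM. The 8 measured genes had a median log2 ratio of -0.45, and Foxn1 and Ptcra had 0 counts. Of the 8, 3 were at least 2-fold lower in replicate 2, among them Cd3e and Rag1. Nerve and Schwann cell genes summed to 13.5 and 7.14 TPM, with a median log2 ratio of -0.47 over 7 measured genes and Th at 0 counts. Of the 7, 1 was at least 2-fold lower in replicate 2. Its log2 ratio of -4.84 was below that of each of the 9 genes.

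Atrial and erythroid genes were higher in replicate 2. Atrial genes summed to 562 TPM in replicate 1 and 1005 TPM in replicate 2, with Bmp10 as the 1 of 10 past 2-fold and a median log2 ratio of 0.81. Erythroid genes summed to 5275 and 12996 TPM, with 7 of 9 measured genes at least 2-fold higher and a median of 1.27. Liver and plasma genes had 2 of 7 measured genes past 2-fold, both higher, with a median of 0.04. Airway genes had 0 of 2 past 2-fold, with a median of -0.67 and sums of 1.43 and 1.29 TPM. The 2 hearts therefore also differed in atrial and blood RNA, and the part of these differences in the values of Ucp1 and the other fat-cell genes was not tested.

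**Figure D4:**
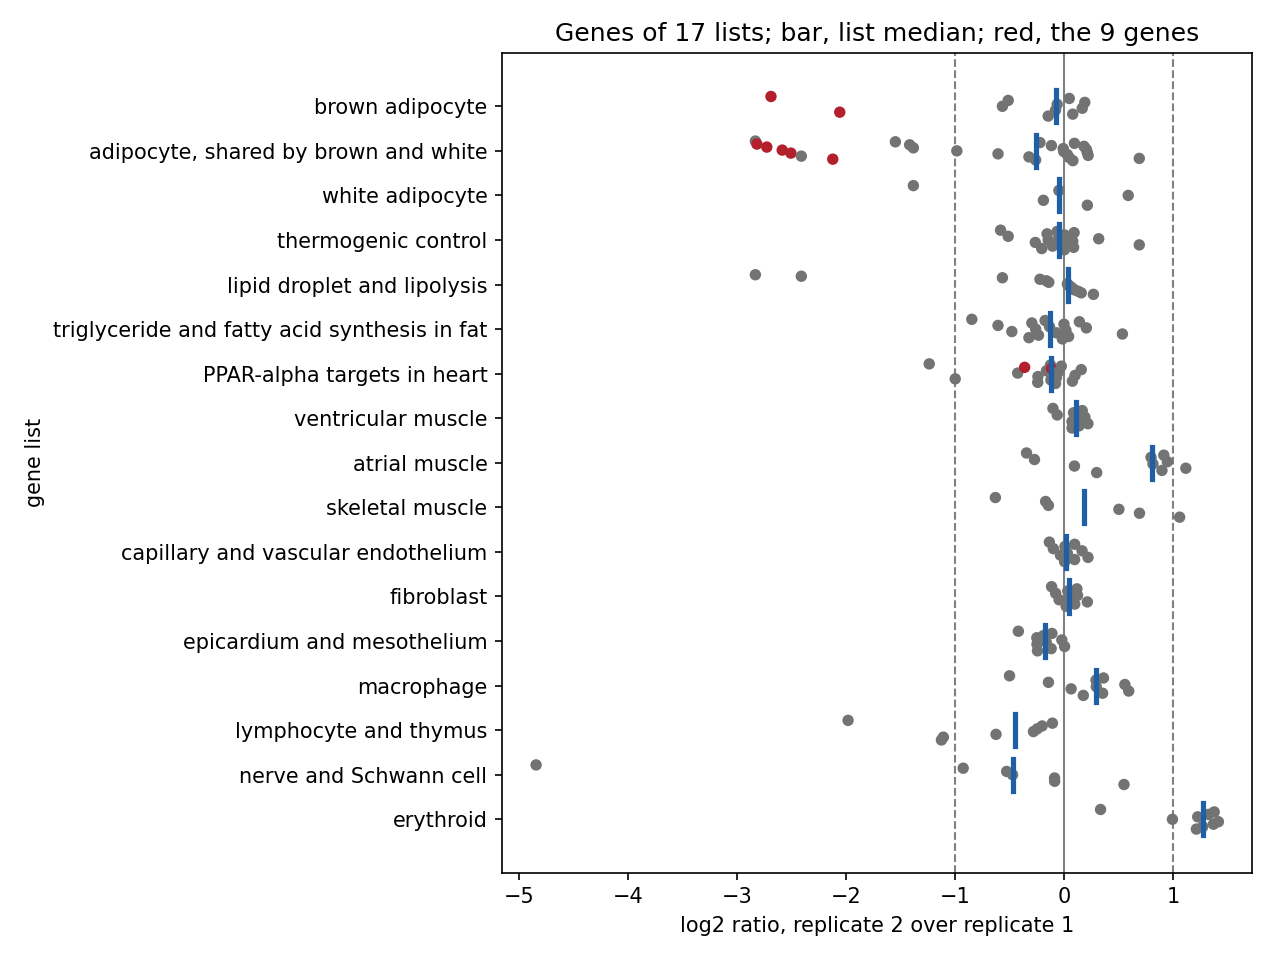
Log2 ratio of replicate 2 over replicate 1 for each measured gene of 17 lists (points; red for the 9 genes), with the list median (blue bar) and dashed lines at 2-fold. In the shared fat-cell list 10 genes lie below -1, 5 of them outside the 9 genes, against 2 in the brown and 1 in the white list. The medians of these 3 lists lie at -0.26, -0.08 and -0.05, and the erythroid and atrial medians at 1.27 and 0.81.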

How the data were processed

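For each of 2 heart libraries the authors deposited a gene table and a transcript table with expected counts and TPM, the latter also with the percent of a gene's TPM in each isoform, and a second transcript table with estimated counts and TPM. Per the file headers these look like the output of RSEM and kallisto. For tool versions, and for the strand setting, nothing is given in the sources used here. Tables are on mm10 with GENCODE M21, whose symbols name the genes. Reads of the parental genomes were not told apart.

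Expected counts were scaled by TMM factors (edgeR 4.0.16, R 4.3.3). Ratios add 0.5 to each count. Intervals are exact (Clopper-Pearson for ratios, Poisson for counts, 95%) and cover counting error only. With 1 library against 1, edgeR's quasi-likelihood test could not be fitted and no p-value is given. A gene counts as measured at 20 or more expected counts over both libraries. The ratio code was tested on simulated data. Alternatives used DESeq2 1.42.0 size factors, total, nuclear or ERCC counts, the estimated counts, other prior counts, minimums and folds, and 1 library at a time. Python 3.11.15, pandas 2.3.3 and scipy 1.17.1 were used.

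The genes, the lists and the motifs were chosen with earlier results of these data known. Named are the 9 genes, list genes past 2-fold, up to 4 of the highest mean TPM per list, and the 10 protein-coding genes of at least 1 TPM nearest to the median ratio and the 10 lowest. Others are said to be chosen after their values were seen, and some genes the rule names are not reported here. The symbols Gyk and Ahsp matched no gene. RefSeq promoters were found for 8 of the 9 genes, not for Car3. The RefSeq start of Otop1 lies inside the GENCODE gene, as do those of Ucp2, Ucp3, Pck1 and Acvr1c. Otop1 was left out of the motif search, which covered 7 genes.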

Additional observations from a re-analysis of the deposited data

How the results depend on the processing

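The count of 7 genes at least 2-fold lower in replicate 2 held under all scalings, the estimated counts, a prior count of 5, no count minimum and folds of 1.5 and 4, and was 5 of those with a summed count of at least 100. The genes were chosen by this difference in the same libraries, so the count could hardly move. The largest shift by a scaling was -0.10 in log2, from the ERCC spike-ins. The folds of Ucp1 ran from 6.37 to 6.93 and those of Cfd, the widest, from 3.09 to 5.75. Over all genes, 225 of 16506 were lower and 189 higher. Of the same 16506 genes, a prior count of 5 gave 117 and 110. A fold of 1.5 gave 699 and 626, and a fold of 4 gave 38 and 28. With other numbers of genes entering, a summed count of at least 100 gave 48 and 42, and no minimum gave 2999 and 2706. The brown fat list had 1 gene lower at a summed count of at least 100 and 4 with no minimum, in place of 2, and the shared fat-cell list had 6 at that summed count in place of 10. These follow from the number of genes that enter, the fold or the prior count. The kallisto-type tables put Ucp2 at a mean of 499.9 TPM and Ucp3 at 50.8 TPM, outside the spread of the main values, and the cause was not tested. No paired analysis was possible because there is 1 group. Ratios between the libraries cannot be formed without either replicate. With 1 library per heart, and no other heart of this strain analysed here, the data cannot say which heart is usual. Counts of 7 to 24 in replicate 2 limit Cfd, Otop1, Acvr1c and Adipoq.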
